A study of Mus musculus with 6 samples.

Results

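The miR-378 family of the mouse was examined in small RNA libraries of bone-marrow-derived macrophages, the adherent phagocytes that grow out of marrow cells under macrophage colony-stimulating factor (M-CSF). Its members were taken by name as mmu-miR-378a-3p, mmu-miR-378a-5p, mmu-miR-378b, mmu-miR-378c and mmu-miR-378d, which are 5 of the 911 mature miRNA references with reads, and none of the 20 joint entries of near-identical miRNAs holds a member. The 3 ApoE-KO libraries (EKO) came from mice that lack apolipoprotein E, which carries lipids out of macrophages and in plasma, and the 3 wild-type libraries (WT) came from mice with the gene intact. All donors were male and between 6 and 12 weeks old, and all 6 cultures received M-CSF at 25 ng/mL every 2 days for 6 days in medium with 10% serum. The labels name no further allele or agent and do not say how the gene was inactivated, and Apoe mRNA is not counted in these libraries, so no value here checks the genotype.

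The mouse gene of miR-378a lies within an intron of Ppargc1b, which encodes the transcriptional coactivator PGC-1beta, a driver of mitochondrial biogenesis and oxidative metabolism. A hairpin precursor is cut into a 3p and a 5p arm, and usually 1 of them is loaded into Argonaute and kept while the other is degraded. The 3p arm of miR-378a is known to repress Crat, an enzyme of fatty acid metabolism, and the 5p arm is known to repress Med13, a Mediator subunit, and Esrrg and Gabpa, partners of PGC-1beta. In macrophages miR-378a-3p is known as an miRNA that interleukin 4 induces and that restrains PI3K/Akt signalling. Per GENCODE M21 (GRCm38), the hairpin of miR-378a sits on the same strand as Ppargc1b and in an intron, and a further miRNA gene, Gm25301, is annotated on the opposite strand there.

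The other 3 members arise from separate loci, and their sequences are shown because near-identity decides how their reads could be counted. Mature sequences from RefSeq (GRCm38.p6) were used for these 3 of the 5 members, and entries on the chromosome of miR-378a were left out. They are printed 5′ to 3′ with the seed, bases 2 to 8, in capitals.
miR-378b: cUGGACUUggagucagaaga
miR-378c: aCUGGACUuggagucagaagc
miR-378d: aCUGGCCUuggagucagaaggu
The mature miR-378b lies at chr11:88352839-88352858 on the plus strand, inside an intron of Msi2, which is transcribed from the opposite strand. The mature miR-378c lies at chr14:46954905-46954925 on the minus strand, inside an intron of Samd4, again opposite to the host gene. The mature miR-378d lies at chr10:126710355-126710376 on the minus strand and overlaps no GENCODE M21 gene. The 3 mature sequences do not sit alike in their hairpins, since miR-378b fills bases 67 to 86 of 92, on the 3′ side, while miR-378c fills bases 4 to 24 of 99 and miR-378d bases 16 to 37 of 110, on the 5′ side.

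The sequences of miR-378b, miR-378c and miR-378d share a run of 14 bases, cuuggagucagaag, at positions 7 to 20 of miR-378c, and miR-378b and miR-378c share 19 bases in a row. With positions counted from 1 at the 5′ end of miR-378c, miR-378b lacks the first base and differs by C21A at its last base, and miR-378d differs by A6C and C21G over the 21 bases compared. The A6C change falls within the seed, and the missing first base moves the seed of miR-378b by 1 base. The 3 annotated seeds, UGGACUU for miR-378b, CUGGACU for miR-378c and CUGGCCU for miR-378d, therefore all differ. Among the 1679 mature miRNA names searched in RefSeq, which include these 3 members, no other name has any of the 3 seeds. Entries on the chromosome of miR-378a, its own arms among them, were not part of that search.

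Mature miRNAs received 34651516 to 39532548 reads per library in EKO and 38440296 to 41331600 in WT. The EKO libraries held 48275 to 57650 distinct read sequences and the WT libraries 62572 to 67508, so the groups did not overlap in this measure. Mature references detected numbered 543 to 591 in EKO and 668 to 698 in WT, again without overlap. The part of these differences in the values of miRNAs with few reads was not tested. Levels below are CPM, counts per 1000000 reads on mature miRNAs after TMM scaling, a correction for library composition. Ligation in small RNA kits favours some sequences, and levels of different miRNAs are set side by side only to show their order. The macrophage label was set beside 8 myeloid miRNAs, all of which were detected. Their summed level was 152900 to 167500 CPM in EKO and 214100 to 234900 CPM in WT. This sum is nearly all miR-21a-5p, at 146900 to 160600 CPM in EKO and 208000 to 229100 CPM in WT. It therefore says little about the other listed myeloid miRNAs. The 4 most abundant were miR-21a-5p, at 152600 ± 7127 CPM (EKO) against 215900 ± 11500 CPM (WT), miR-223-5p, at 2789 ± 104 against 2024 ± 141, miR-146a-5p, at 2205 ± 405 against 2099 ± 184, and miR-142a-3p, at 719.8 ± 165 against 980.2 ± 148 (SD, n = 3 each). Of these 4, the groups did not overlap for miR-21a-5p, the larger in WT, or for miR-223-5p, the larger in EKO. Over all 8, 3 were lower in EKO without overlap and 1 was higher, beside 18.8% and 12.5% of all miRNAs tested. The other arm, miR-223-3p, was among the lower ones, at 259 ± 16.2 CPM (EKO) against 398.9 ± 84 CPM (WT) (SD, n = 3 each). The myeloid miR-511-3p was close to the limit of detection, at 0, 0 and 0.659 CPM in EKO and 0.439, 0.547 and 1.31 CPM in WT. Summed markers of other cell types reached 116 to 154 CPM in EKO and 129 to 158 CPM in WT for erythroid cells, 284 to 347 and 415 to 477 for lymphoid cells, 3533 to 4022 and 3564 to 3812 for stromal fibroblasts, 122 to 170 and 133 to 162 for epithelium, and 99.8 to 164.0 and 45.0 to 58.3 for hepatocytes. Of these 5 sums, the lymphoid and hepatocyte ones did not overlap between the genotypes. The stromal sum is nearly all miR-140-3p, at 3390 to 3896 CPM over the 6 libraries. Of the 5 stromal miRNAs tested, 3 were lower in EKO without overlap, beside 18.8% of all miRNAs tested, and 0 were higher, beside 12.5%. Among the lower ones, miR-143-3p stood at 90.4 ± 28.1 CPM (EKO) against 185.7 ± 29.6 CPM (WT) (SD, n = 3 each). The others were low in level. The joint entry of miR-199a-3p and miR-199b-3p stood at 1.96 ± 1.83 against 10.2 ± 3.07 CPM, and miR-199a-5p at 0.59 ± 0.82 against 3.74 ± 0.56 CPM. The part of these myeloid, lymphoid, hepatocyte and stromal differences in the results below was not tested.

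The family took 0.344% to 0.388% of the reads of a library, and nearly all of this was miR-378a-3p. Of the reads of the 5 members, miR-378a-3p held 97.01% to 97.6%, miR-378c 2.03% to 2.45%, and the other 3 members 0.0816% to 0.387% each. By mean CPM over the 6 libraries, miR-378a-3p ranked 29 of 911 references, miR-378c 128, miR-378a-5p 258, miR-378b 272 and miR-378d 342. The shares and ranks of miR-378b, miR-378c and miR-378d rest in large part on how shared reads were divided, as described below. In all 6 libraries miR-378d was the lowest member, whereas miR-378a-5p lay above miR-378b in 3 libraries and below it in the other 3, so these 2 cannot be ordered.

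The level of miR-378a-3p, the abundant arm, did not separate the genotypes. It stood at 3572, 3644 and 3398 CPM in the EKO libraries and at 3738, 3562 and 3314 CPM in the WT libraries. The 3 EKO values lie inside the range of the WT values. Both means came to 3538 CPM, with an SD of 127 in EKO and 213 in WT (n = 3 each). The log2 fold change of EKO over WT was 0.00 with an SE of 0.10, and its p adjusted over the 575 miRNAs tested was 1.00 (edgeR quasi-likelihood test). The 95% interval of the ratio of EKO to WT ran from 0.856 to 1.17, so changes larger than these bounds in either direction lie outside it. In units of reads before any scaling, 115932, 145876 and 128954 reads in EKO stood beside 144911, 143364 and 142144 in WT.

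**Figure D1:**
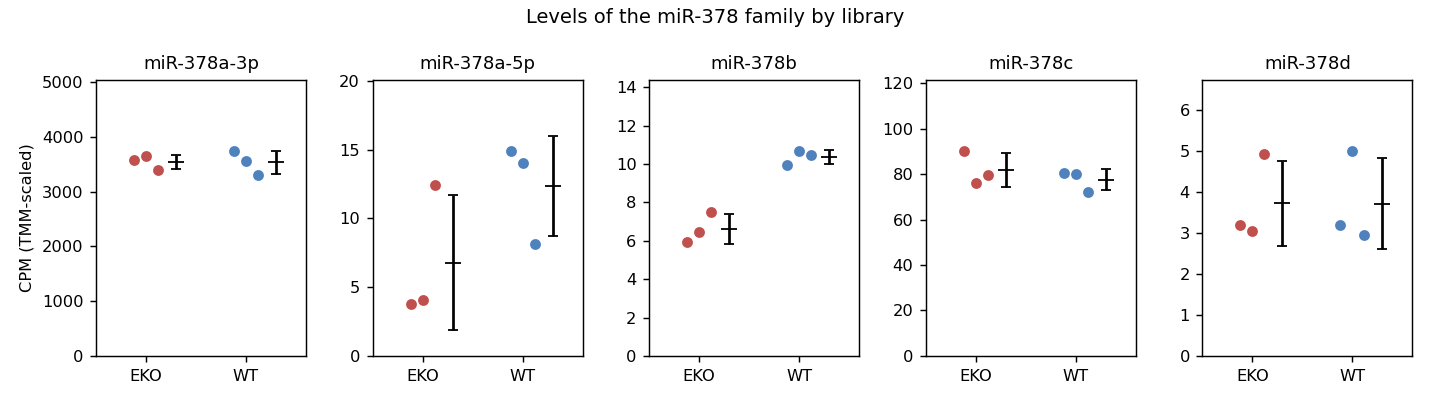
TMM-scaled CPM (vertical axes, linear, each starting at 0) of the 5 members in the 3 EKO (red) and 3 WT (blue) libraries, with the group mean and SD in black. The groups overlap for every member but miR-378b, whose EKO libraries lie at 5.92 to 7.48 CPM and whose WT libraries lie at 9.96 to 10.7 CPM.

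The spread of miR-378a-3p over all 6 libraries was small beside that of other abundant miRNAs. Among the 116 miRNAs averaging at least 100 CPM, its SD of log2 CPM was the lowest, at 0.0642 against a median of 0.273. That place depended on the scaling, since it ranked 10 of 116 when scaled by DESeq2 size factors, 17 by upper-quartile factors and 4 by library totals alone. In each of these 3 scalings the SD stayed below the median, at 0.0988, 0.128 and 0.0643. Its neighbours in the order of level were miR-140-3p above, at 3719 ± 231 CPM (EKO) against 3526 ± 118 CPM (WT), and miR-191-5p below, at 3071 ± 340 against 3523 ± 432 CPM (SD, n = 3 each). Their ranges overlapped that of miR-378a-3p, so the 3 cannot be ordered beyond their spread.

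**Figure D2:**
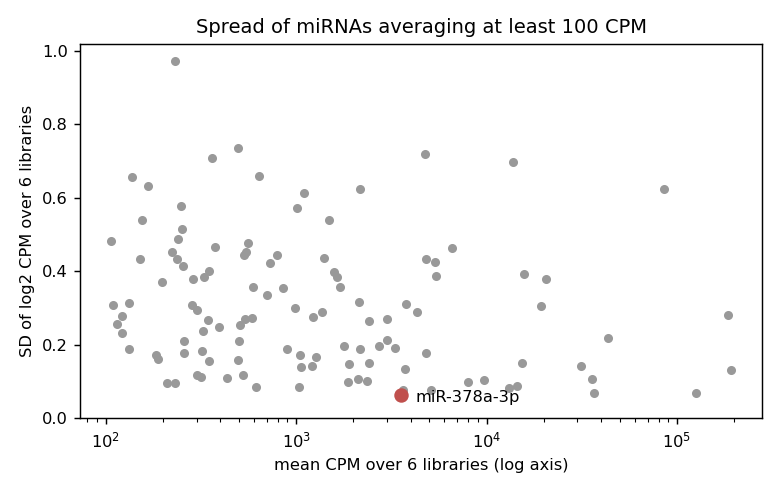
SD of log2 CPM over the 6 libraries (vertical axis) against mean CPM (horizontal log axis) for the 116 miRNAs averaging at least 100 CPM, with miR-378a-3p in red. Its point lies at 3538 CPM and 0.0642, at the lower edge of the cloud, whose median is 0.273.

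The miRNAs whose log2 CPM followed that of miR-378a-3p most closely over the 6 libraries were sought among 115 others averaging at least 100 CPM. The highest Pearson correlation was that of let-7f-5p (r = 0.953), followed by miR-101a-3p (0.715), miR-182-5p (0.674), miR-140-3p (0.671) and miR-221-5p (0.669). These values describe 6 points that share the scaling and the library depth, and they are the highest of 115. The members themselves correlated with miR-378a-3p at 0.416 for miR-378c, -0.0519 for miR-378a-5p, -0.171 for miR-378b and -0.19 for miR-378d over the same 6 libraries.

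The passenger arm miR-378a-5p was low and uneven. It stood at 3.79, 4.07 and 12.4 CPM in the EKO libraries and at 14.9, 14.0 and 8.16 CPM in the WT libraries, from 123, 163 and 472 reads and from 577, 564 and 350 reads. EKO replicates 1 and 2 lie below all WT libraries, while EKO replicate 3 lies between WT replicate 3 and the other 2 WT libraries. The EKO mean was 6.77 ± 4.91 CPM and the WT mean 12.4 ± 3.66 CPM (SD, n = 3 each), and the log2 fold change was -0.87 with an SE of 0.58 (edgeR adjusted p = 0.505; 95% interval of the ratio from 0.217 to 1.38). Without EKO replicate 3 the log2 fold change was -1.65, with an adjusted p of 0.0953 (edgeR). None of the reads of miR-378a-5p were shared with another reference, and they came from 10, 11 and 20 distinct sequences in EKO and from 46, 32 and 23 in WT. The groups did not overlap in this count of distinct sequences, which is low in EKO over the whole library too.

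Its neighbours in the order of level were miR-669l-5p, at 5.82 ± 3.32 CPM (EKO) against 13.4 ± 2.46 CPM (WT), and miR-6989-3p, at 10.5 ± 2.37 against 8.26 ± 2.76 CPM (SD, n = 3 each). At this level a miRNA can thus lie on either side without a difference from miR-378a-5p that exceeds the spread between libraries.

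The ratio of the arms of miR-378a does not depend on library scaling. There were 943, 895 and 273 reads of the 3p arm per read of the 5p arm in EKO and 251, 254 and 406 in WT. The values of EKO replicates 1 and 2 are the highest of the 6, and that of EKO replicate 3 lies within the WT range. Since the 5p arm averaged under 10 CPM, miR-378a was outside the 53 hairpins of the main comparison of arms, in which 1 hairpin, miR-331, was called (1.89%, limma adjusted p = 0.036, named after its value was seen). Among the 98 hairpins with both arms averaging at least 1 CPM, miR-378a had the fourth highest log2 ratio of 3p to 5p, between those of miR-652 and miR-1249, and 47 of the 98 had more 3p than 5p reads. Its log2 ratio averaged 9.26 ± 1.01 in EKO against 8.21 ± 0.395 in WT (SD, n = 3 each), and the groups overlap as they did not for 30 of the 98 hairpins (30.6%). The difference was 1.05 ± 0.58 (SE, adjusted p = 0.304, limma over the 98 hairpins), with a 95% interval from -0.44 to 2.53, and 0 of the 98 hairpins were called (0%), while 21 (21.4%) had an unadjusted p under 0.05. Without EKO replicate 3 the difference was 1.63 (adjusted p = 0.0678, limma).

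**Figure D3:**
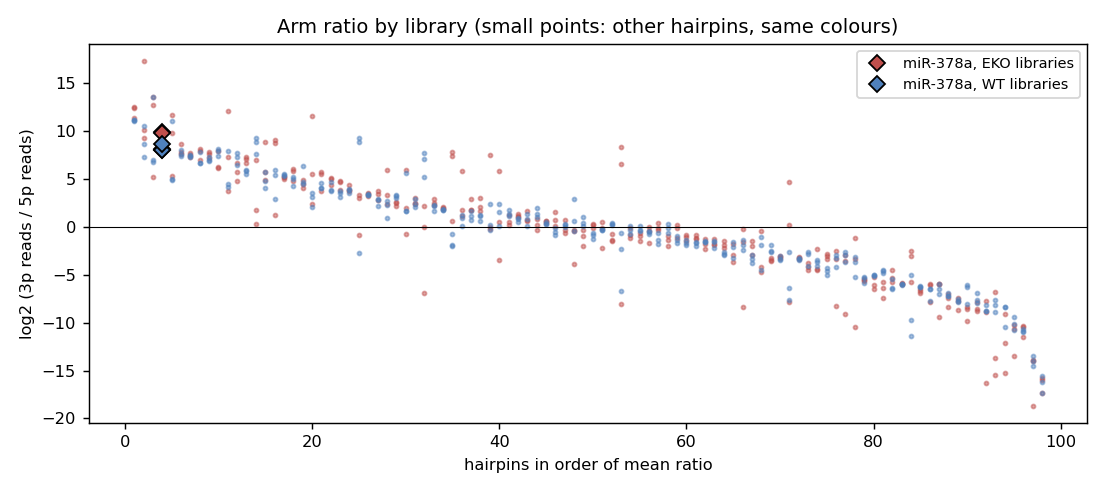
Log2 ratio of 3p to 5p reads (vertical axis) in each library for the 98 hairpins with both arms averaging at least 1 CPM, in order of their mean ratio (horizontal axis). The 6 diamonds of miR-378a, at rank 4, run from 7.97 to 9.88, and EKO replicates 1 and 2 give the 2 highest.

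For miR-378c, the second most abundant member, the deposited counts rest mostly on reads that match other references as well. Its total reads were 5964, 6250 and 6166 in EKO and 6435, 6660 and 6438 in WT, of which 48.18% to 48.97% remained after shared reads had been divided. The reads taken off miR-378c, 3043 to 3442 per library, were close in number to those taken off miR-378a-3p, 3116 to 3578 per library. Since miR-378a-3p was so much more abundant, it kept 97.38% to 97.8% of its total. Among 384 references with at least 600 total reads over the 6 libraries, miR-378b kept the smallest share (42.1%), miR-378c the second smallest (48.6%) and miR-378d ranked 11 (63.0%), while 346 references kept more than 99%. The levels of miR-378b, miR-378c and miR-378d therefore rest in large part on how the authors divided shared reads.

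**Figure D4:**
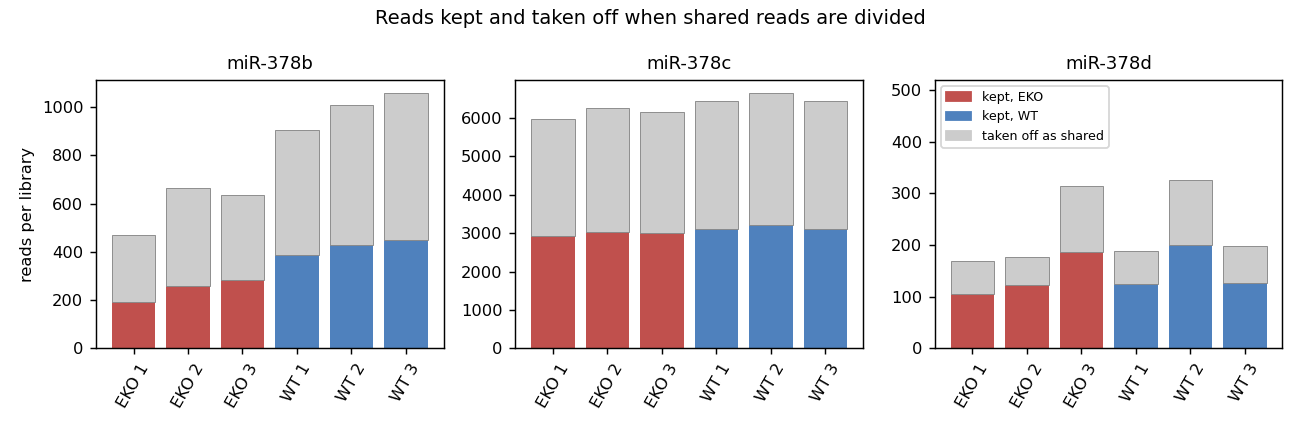
Total reads per library (vertical axes, linear from 0) of miR-378b, miR-378c and miR-378d, divided into reads kept after shared reads were divided (red EKO, blue WT) and reads taken off (grey). The grey part is the larger one in all 6 libraries for miR-378b and miR-378c and the smaller one in all 6 for miR-378d.

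After that division miR-378c stood at 90.0, 76.0 and 79.4 CPM in EKO and at 80.4, 80.0 and 72.3 CPM in WT. The groups overlap, and EKO replicate 1 is the highest library. The EKO mean was 81.8 ± 7.32 CPM and the WT mean 77.6 ± 4.55 CPM (SD, n = 3 each), and the log2 fold change was 0.08 with an SE of 0.17 (edgeR adjusted p = 0.91; 95% interval of the ratio from 0.804 to 1.38). Per 100 reads of miR-378a-3p there were 2.52, 2.08 and 2.34 reads of miR-378c in EKO and 2.15, 2.25 and 2.18 in WT.

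The genotypes did not overlap for miR-378b alone among the members. It stood at 5.92, 6.47 and 7.48 CPM in EKO and at 9.96, 10.7 and 10.5 CPM in WT, from 192, 259 and 284 reads and from 386, 429 and 449 reads. Every EKO library lies below every WT library. The EKO mean was 6.62 ± 0.795 CPM and the WT mean 10.4 ± 0.364 CPM (SD, n = 3 each), and the log2 fold change of -0.65 ± 0.40 (SE) did not pass the test over all miRNAs (adjusted p = 0.47, edgeR; 95% interval of the ratio from 0.336 to 1.22). Of the 575 miRNAs tested, 108 (18.8%) were lower in EKO without overlap and 72 (12.5%) were higher without overlap, so a count of 1 in 5 members is near the background. In bulk libraries, fewer cells that make an miRNA and fewer copies per cell cannot be told apart.

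The lower values of miR-378b were also seen in reads counted before the division of shared reads and in ratios to its abundant relative. Total reads, with shared reads counted in full, were 472, 665 and 636 in EKO and 906, 1010 and 1061 in WT, again without overlap. With total reads in place of divided reads the log2 fold change was -0.57 (adjusted p = 0.248, edgeR). Divided and total counts come from the same reads, of which 39% to 44.67% remained for miR-378b after the division. Total reads are thus not separate evidence, and which reference the shared reads came from was not tested. Per 100 reads of miR-378a-3p there were 0.166, 0.178 and 0.22 reads of miR-378b in EKO and 0.267, 0.299 and 0.316 in WT. The smaller EKO values thus hold within each library relative to miR-378a-3p, a comparison in which library scaling has no part. Since miR-378a-3p varied little between libraries (SD of log2 CPM 0.0642), this ratio mostly restates the CPM of miR-378b and is not separate evidence.

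The number of distinct sequences moved with genotype for most members. For miR-378b there were 51, 60 and 62 distinct sequences in EKO and 81, 88 and 87 in WT, and for miR-378a-3p, whose means were equal, 536, 590 and 599 in EKO and 690, 695 and 697 in WT. For miR-378c there were 142, 161 and 172 in EKO and 206, 215 and 218 in WT. Together with miR-378a-5p, 4 of the 5 members had fewer distinct sequences in every EKO library than in any WT library, against 187 of 575 miRNAs tested (32.5%). The part of this difference between the libraries in the level of miR-378b was not tested.

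The least abundant member, miR-378d, stood at 3.20, 3.05 and 4.93 CPM in EKO and at 3.20, 4.99 and 2.96 CPM in WT. EKO replicate 3 and WT replicate 2 are the high libraries, and the groups overlap. The EKO mean was 3.73 ± 1.04 CPM and the WT mean 3.72 ± 1.11 CPM (SD, n = 3 each), and the 95% interval of the ratio, from 0.329 to 3.06, was the widest of the 5 (log2 fold change 0.00 ± 0.70, SE, adjusted p = 1.00, edgeR). It had 104 to 201 reads per library. The interval of miR-378d includes the ratio of 0.639 fitted for miR-378b, a difference that itself did not pass the test.

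None of the 5 members passed an adjusted p of 0.05 in the comparison of EKO with WT, as 0 of the 575 miRNAs tested did (0%, edgeR); DESeq2 called 92 miRNAs and limma-voom 32, none of them a member. No member reached an unadjusted p under 0.05, while 48 miRNAs higher in EKO (8.35%) and 75 lower (13%) did. All 5 passed the filter on low counts, and their fitted values split into 2 above 0, beside 41.7% of all miRNAs tested, and 3 below 0, beside 58.3%, with a median log2 fold change of -0.16 over all miRNAs tested. The sign has no meaning for miR-378a-3p and miR-378d, whose fitted values changed sign between scalings. Summing miR-378a-3p, miR-378b, miR-378c and miR-378d to 1 reference before the fit, which removes the question of how their shared reads were divided among them, gave a log2 fold change of 0.01 with an SE of 0.10 (edgeR adjusted p = 0.992).

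**Figure D5:**
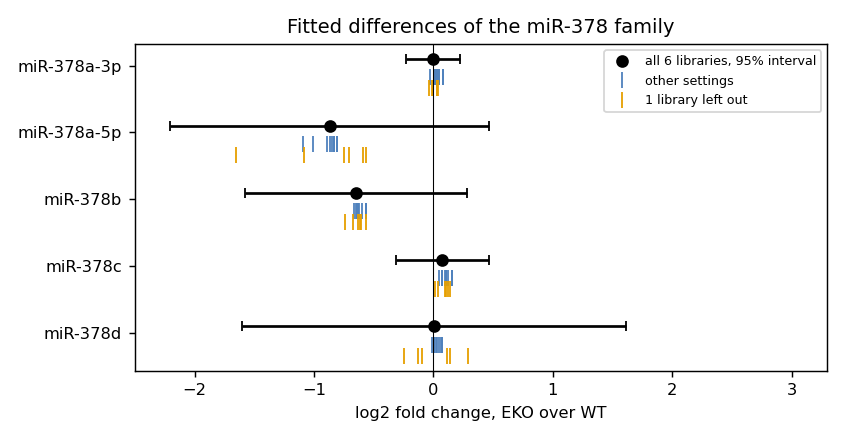
Log2 fold change of EKO over WT (horizontal axis) for the 5 members, with the 95% interval of the edgeR fit on 6 libraries in black, the other settings in blue and the fits without 1 library in orange. Each black interval includes 0, and the narrowest is that of miR-378a-3p.

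The level of miR-378a-3p can be set beside other miRNAs of mitochondrial and energy metabolism and of brown fat. Of 30 listed, 25 were detected and 24 tested, of which 2 had higher and 22 lower fitted values in EKO with all 4 scalings. Over all miRNAs tested, 41.7% had higher and 58.3% lower fitted values. None of the list passed the test over all miRNAs (edgeR). With an unadjusted p under 0.05, 1 was higher, beside 8.35% of all miRNAs tested, and 14 were lower, beside 13%. Without overlap between the genotypes, 1 was higher, beside 12.5%, and 17 were lower, beside 18.8%. The median log2 fold change was -0.69 against -0.16 over all tested. Some entries are linked, such as both arms of miR-455 and the clustered miR-23b-3p and miR-27b-3p. The counts are therefore not counts of independent miRNAs. The 4 most abundant were miR-27b-3p, at 15970 ± 1817 CPM (EKO) against 22450 ± 2537 CPM (WT), miR-26a-5p, at 5102 ± 1364 against 8099 ± 1034, miR-27a-3p, at 3863 ± 900.1 against 4772 ± 545.9, and miR-23b-3p, a repressor of glutaminase, at 1307 ± 222 against 1981 ± 260 (SD, n = 3 each). The groups did not overlap for 3 of these 4, whereas they did for miR-378a-3p.

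Of 39 listed miRNAs that, like miR-378a, lie within introns of protein-coding genes, 33 references were tested, with 11 higher and 22 lower fitted values in EKO (12 and 21 with DESeq2 size factors) and none past the test (edgeR). Without overlap between the genotypes, 8 were higher in EKO, beside 12.5% of all miRNAs tested, and 14 were lower, beside 18.8%. An unadjusted p under 0.05 was reached by 6 higher, beside 8.35%, and 12 lower, beside 13%. Their median log2 fold change was -0.51. Both arms of some hairpins are listed, such as those of miR-342 and miR-151, so these entries are not independent. The most abundant were miR-151-3p, from an intron of Ptk2, at 18850 ± 5893 CPM (EKO) against 8721 ± 1873 CPM (WT), miR-25-3p, from Mcm7, at 8373 ± 570.2 against 7598 ± 69.8, miR-26a-5p, from Ctdsp genes, given above, and miR-128-3p, at 5212 ± 506 against 4347 ± 250.5 (SD, n = 3 each). None of these 4 overlapped between the genotypes, and 3 of them were higher in EKO, while more of the whole list was lower than higher. The gap was narrow for miR-128-3p, whose lowest EKO value was 4631 CPM and highest WT value 4625 CPM. For miR-25-3p these values were 7750 and 7669 CPM.

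Of 20 miRNAs of macrophage activation and alternative polarization, the setting in which miR-378a-3p is induced by interleukin 4, 19 were tested and none passed (edgeR). Their fitted values were higher in EKO for 3 and lower for 16, 5 and 14 under DESeq2 size factors, 2 and 17 under library totals alone, and the median log2 fold change was -0.50. Without overlap between the genotypes, 8 of the 19 were lower in EKO, beside 18.8% of all miRNAs tested, and 0 were higher, beside 12.5%. The same numbers, 8 and 0, had an unadjusted p under 0.05, beside 13% and 8.35%. Here too some entries are linked, such as both arms of miR-142a. The most abundant were miR-21a-5p, at 152600 ± 7127 CPM (EKO) against 215900 ± 11500 CPM (WT), miR-222-3p, at 37140 ± 2677 against 36520 ± 526.5, let-7c-5p, at 15090 ± 825 against 13970 ± 578, and miR-99a-5p, at 12800 ± 1013 against 13410 ± 232 (SD, n = 3 each). Of these 4, miR-21a-5p was lower in EKO without overlap and the other 3 overlapped.

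Muscle and fat are tissues in which miR-378a is abundant, and miRNAs of these tissues were counted beside it. Of 7 striated-muscle miRNAs 2 were detected, and their summed level was 2.77 to 25.0 CPM in EKO and 0.671 to 3.22 in WT, with miR-133a-3p, miR-133b-3p, miR-208a-3p, miR-208b-3p and miR-499-5p at 0 in every library. The highest muscle sum belongs to EKO replicate 2, through miR-1a-3p at 24.8 CPM, and that library also had the highest EKO value of miR-378a-3p. Over all 6 libraries miR-378a-3p was highest in WT replicate 1, at 3738 CPM, where miR-1a-3p was at 3.20 CPM. Of 5 adipocyte miRNAs 4 were detected, all 4 lower in EKO without overlap, beside 18.8% of all miRNAs tested, with sums of 39.1 to 70.7 CPM in EKO and 85.7 to 102 in WT, and miR-193b-3p at 0. The level of miR-378a-3p was 3314 to 3738 CPM over the 6 libraries, and the part of muscle or fat cells in it was not tested.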

How the data were processed

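Small RNA was sequenced from 3 EKO and 3 WT macrophage cultures. Per the labels' protocols, column-purified total RNA went into an NEB kit for small RNA. The submitters' processing notes name mm9; which aligner and counter were used is not given in the sources used here. Every deposited table gives per reference, per the file headers, a count of distinct sequences, a total read count, an estimated count that divides multiply matching reads between references, and a barcode count, which summed to 0. Reads without barcodes are not independent molecules, and the spread between libraries was used as the error. The deposited estimated counts were rounded to whole numbers for the fits, and a missing reference was taken as 0. The 73 stem-loop references were left out.

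The comparison used edgeR 4.0.16 in R 4.3.3 (TMM, filterByExpr by genotype, quasi-likelihood test on genotype, Benjamini-Hochberg adjustment, threshold 0.05). A standard error is the size of the log2 fold change over the square root of F. Arm ratios, log2 of 3p over 5p reads with a pseudocount of 0.5, were fitted with limma 3.58.1. The fits were tested on simulated data. Alternatives were DESeq2 1.42.0, limma-voom, other scalings, filters and count columns, the family summed, a replicate block and each library left out. Replicates are biological per the series design, and replicates of a genotype differed by a chi-square per degree of freedom of 211 to 1743, far above read sampling. Named miRNAs are the members, the 4 most abundant of each pathway list, the level neighbours of the miR-378a arms, the hairpins nearest in arm ratio and the 5 most correlated with miR-378a-3p. From the marker lists, the 4 most abundant myeloid miRNAs are named, and the others, miR-511-3p and miR-143-3p included, were picked after their values were seen. The members and lists were chosen with earlier results of these data known. Sequences are those of RefSeq; for the arms of miR-378a none is printed.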

Additional observations from a re-analysis of the deposited data

How the results depend on the processing

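No member passed the adjusted threshold under any alternative. The log2 fold changes of miR-378a-5p (-1.09 to -0.80), miR-378b (-0.67 to -0.56) and miR-378c (0.05 to 0.16) kept their sign in all alternatives on 6 libraries, and with 1 library left out they ranged from -1.65 to -0.57, from -0.74 to -0.56 and from 0.01 to 0.14. That of miR-378a-3p, 0.00 in the reported fit, changed sign to 0.084 with DESeq2 or DESeq2 size factors, 0.0020 with limma-voom, 0.025 with upper-quartile factors, 0.028 with no low-count filter, 0.032 with a mean of at least 10 CPM, 0.051 with at least 10 reads in every library, 0.047 with total read counts, 0.010 with the family summed and 0.0011 with a replicate block, and ran from -0.036 to 0.042 with 1 library left out. That of miR-378d changed sign to -0.0082 with total counts only and ran from -0.25 to 0.29 with 1 library left out. A mean of at least 10 CPM removed miR-378a-5p, miR-378b and miR-378d from the test.

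Over all miRNAs, 0 were called in the reported fit, 92 with DESeq2 (11 without an adjusted p), 32 with limma-voom, 52 with no low-count filter, 43 with at least 10 reads in every library, 59 with a mean of at least 10 CPM and 62 with a replicate block. Leaving out 1 library gave 0 to 45, the 45 without EKO replicate 3. Of the arm ratios, 1 was called in the reported fit, 0 with both arms at least 1 CPM, 8 with at least 100 CPM, 0 with a replicate block and 0 to 18 with 1 library left out, the 18 again without EKO replicate 3; the cause was not tested. The alternatives for the arm ratio of miR-378a, all with at least 1 CPM and added after seeing the data, gave 1.03 to 1.05 on 6 libraries and 0.74 to 1.63 with 1 left out, and none passed. The replicate numbers were not taken as a pairing, since the deviations of libraries that share a number had correlations of 0.137, -0.0837 and 0.278. The members with 104 to 577 divided reads per library, miR-378a-5p, miR-378b and miR-378d, have the widest intervals of the 5.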

Other observations

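Reads on the stem-loop reference of mir-378b, outside the mature miR-378b, were few. Total reads there, with shared reads counted in full, were 13, 3 and 23 in the EKO libraries and 0, 5 and 9 in the WT libraries, and the groups overlap. The 0 in WT replicate 1 allows up to 3 reads of the library, which covers counting error only. Across the 6 libraries the log2 CPM of miR-378b had a Pearson correlation of 0.788 with that of miR-378a-5p and of -0.515 with that of miR-378c, given as a description of 6 points that share depth and scaling.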
